A study of Homo sapiens with 4 samples.

Results

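The genes described here are the hypoxia-inducible and glycolysis genes, 40 named members of the cell's response to low oxygen and of the path that turns glucose into lactate. A member was found where its symbol stands in the first column of the authors' deposited table, and 27 of the 40 were found there, among 8727 genes in all. The libraries were made from polyadenylated RNA of HepG2, an established human liver cancer line whose source is labelled hepatoblastoma. Cells had been given 20 µM Isoginkgetin, a plant biflavonoid known to inhibit pre-mRNA splicing, for 24 h (2 libraries), or DMSO, the solvent control (2 libraries). The authors' deposited table holds, for each gene, the normalized count averaged over all 4 libraries, the log2 fold change and its standard error (SE), and p-values. It lists only genes with an adjusted p under 0.05. Values of single libraries are not analysed here, so no spread between libraries and no depth per library can be given. Nothing in the labels says that libraries of a group came from separate cultures, so the p-values cover only how these libraries vary, which may be a technical spread.

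The column headers do not say which group is in the numerator. Throughout, a positive log2 fold change is called higher and a negative one lower, read as isoginkgetin over DMSO, and if the order were the other way round every direction would turn. Of 11 hepatocyte markers, 10 are in the table and ALB has no row. Mean normalized counts of the 10 ran from 442 for TTR to 157429 for APOB, with 31202 for AFP, by the authors' deposited table. All 10 were lower and had −0.79 as their median on the log2 scale. Of markers of other cells, 1 of 6 for fibroblasts, 2 of 5 for endothelium and 2 of 6 for leukocytes are in the table. Their mean normalized counts were 60.2 for PDGFRB, 129 for PECAM1, 14.2 for CLDN5, 11.7 for CSF1R and 15328 for LYZ. A row shows a change that passed the threshold, and a missing row does not show absence of expression. Numbers of markers with a row therefore cannot tell which cell types were present. Whether the fall of the liver markers bears on the values given next was not tested. In bulk RNA, fewer cells that make a transcript and less of it per cell cannot be told apart.

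Cells sense oxygen through enzymes of the EGLN family, which hydroxylate the alpha subunits of the hypoxia-inducible factors (HIF) so that the VHL ubiquitin ligase removes them. When oxygen is scarce the alpha subunits HIF1A and EPAS1 escape, pair with ARNT and bind short DNA elements with the core ACGTG or GCGTG. Their classic targets raise glucose uptake and glycolysis, keep pyruvate out of mitochondria, export acid and lactate, and call in blood vessels. Some liver cancer cells run this programme in part even with oxygen present.

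Since HIF acts on its targets through that element, the 250 bases before the annotated start are shown for the members at the ends of the range that have a promoter in the RefSeq table. CA9 and PFKFB4 were among the 3 lowest members, KDM3A was among the 3 highest, and PFKFB3 is a paralog that moved against PFKFB2. The sequences are from RefSeq, build GRCh38.p14, read 5′ to 3′ in the direction of the gene, and capitals mark ACGTG or GCGTG on this strand or, as CACGT or CACGC, on the other.

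CA9, chr9:35673678-35673927, plus strand: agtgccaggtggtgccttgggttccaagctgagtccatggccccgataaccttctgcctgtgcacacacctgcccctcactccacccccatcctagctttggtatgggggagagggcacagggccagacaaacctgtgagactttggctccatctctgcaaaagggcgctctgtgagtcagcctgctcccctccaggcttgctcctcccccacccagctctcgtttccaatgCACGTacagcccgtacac

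PFKFB4, chr3:48556804-48557053, minus strand: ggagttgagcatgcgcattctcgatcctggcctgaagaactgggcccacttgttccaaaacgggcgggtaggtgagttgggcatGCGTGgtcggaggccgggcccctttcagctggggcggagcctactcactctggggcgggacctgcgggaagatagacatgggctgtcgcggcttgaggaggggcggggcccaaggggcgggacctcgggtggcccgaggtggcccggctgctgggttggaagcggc

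PFKFB3, the second of its listed starts, chr10:6202682-6202931, plus strand: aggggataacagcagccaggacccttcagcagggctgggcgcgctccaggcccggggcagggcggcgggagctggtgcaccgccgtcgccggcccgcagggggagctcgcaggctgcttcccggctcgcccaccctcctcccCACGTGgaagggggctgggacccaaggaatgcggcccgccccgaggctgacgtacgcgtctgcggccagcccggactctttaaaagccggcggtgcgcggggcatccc

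KDM3A, the first of its listed starts, chr2:86441121-86441370, plus strand: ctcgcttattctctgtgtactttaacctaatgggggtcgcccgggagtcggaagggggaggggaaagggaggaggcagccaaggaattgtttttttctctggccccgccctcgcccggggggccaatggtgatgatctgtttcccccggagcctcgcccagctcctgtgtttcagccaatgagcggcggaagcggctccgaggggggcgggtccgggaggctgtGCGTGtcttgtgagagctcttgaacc

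In CA9 the match covers bases 18 to 14 before the start, and in KDM3A bases 26 to 22. PFKFB4 has its match at bases 166 to 162, and in PFKFB3 the capitals before the start read as a match on both strands, which counts as 2 that overlap. The other listed start of PFKFB3, not shown, has 1 match, CACGC, at bases 168 to 164. Of 36 members with a promoter in the RefSeq table, 31 hold at least 1 match in at least 1 listed promoter. Counted by gene, these were 15 of 19 lower members (78.9%), 4 of 4 higher ones and 12 of 13 outside the table (92.3%). Counted by promoter, matches were in 21 of 29 (72.4%) of lower members, in 6 of 7 (85.7%) of higher members and in 14 of 30 (46.7%) of members outside the table, where HK1 and PFKM have 7 listed starts each. The order of lower members and those outside the table thus depends on whether genes or starts are counted. Among all 35116 promoters of the RefSeq table, 43.2% hold a match, beside 41 of 66 member promoters (62.1%). No share by gene was taken over all genes, so the members' shares by gene have no background. Several members have more than 1 listed start, and some of these promoters overlap. The core letters are present both in members that were lower and in members that were higher.

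Of the 40 members, 21 (52.5%) were lower and 6 (15.0%) were higher, while 13 have no row in the table. The p-values imply that 20024 genes were tested, of which 43.6% passed in either direction, 21.1% as lower and 22.4% as higher. The share of lower members stands above that background and the share of higher members below it, but the background holds genes at low counts, whose SE is larger, and its share at the members' levels is not known. At 2-fold or more, 9 members were lower, against 7.43% of all genes tested, and 0 were higher, against 6.26%. Members in the table had a median log2 fold change of −0.50, beside 0.21 for the whole table. The 13 without a row are HIF1A, EGLN1, HK1, HK2, GPI, PFKM, PFKP, ENO1, CA12, ADM, P4HA2, BHLHE40 and ANKRD37, and whether they were tested or how they moved is not known.

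**Figure D1:**
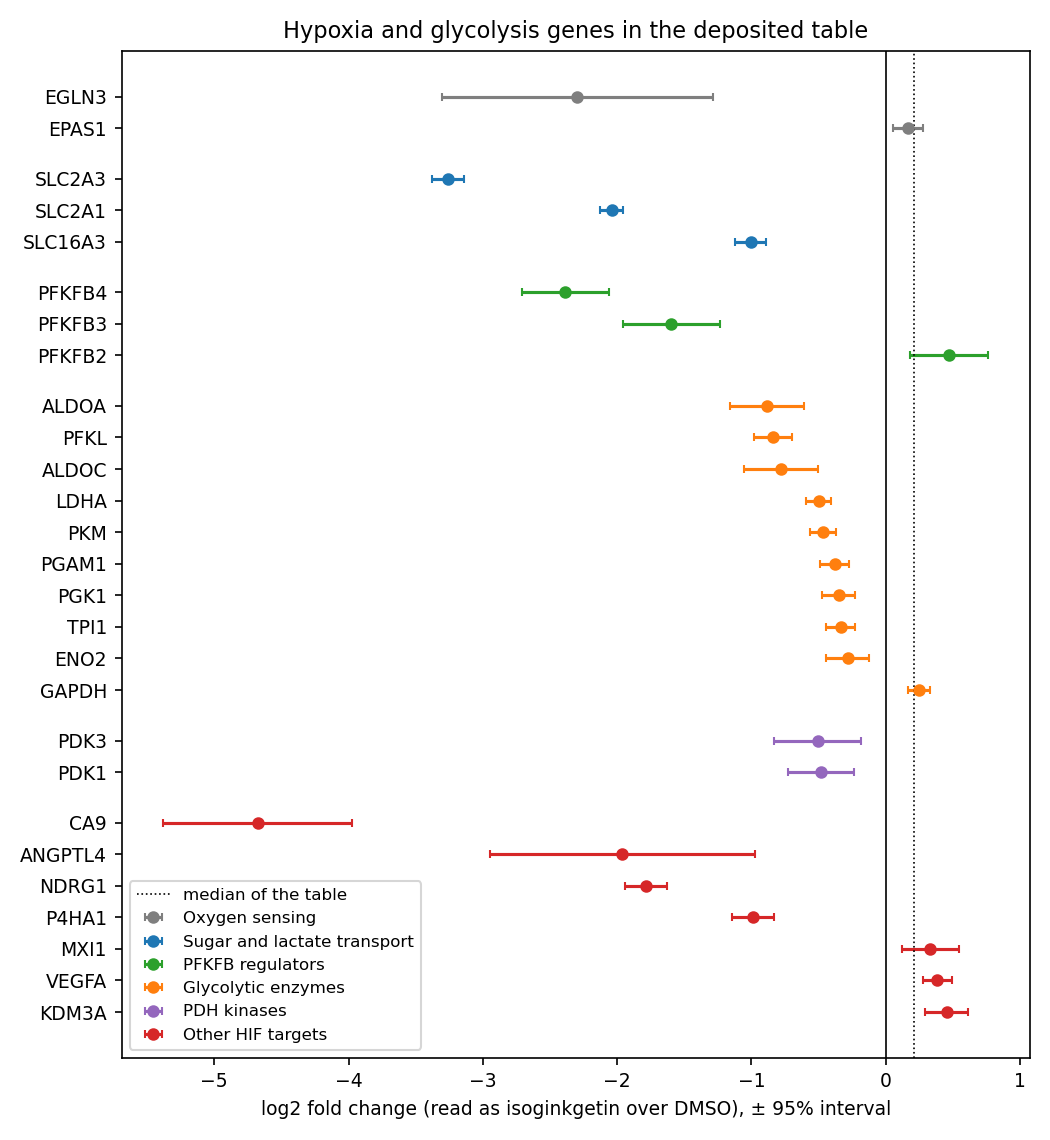
Log2 fold change of each of the 27 members in the authors' deposited table, with bars for the 95% interval, grouped and coloured by role. The dotted line is the median of the whole table at 0.21. Most members lie left of 0, from CA9 at −4.68 to ENO2 at −0.28, and 6 lie right of it.

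Of the oxygen-sensing members, the alpha subunit EPAS1 was higher at 0.17 on the log2 scale (SE 0.06, adjusted p 0.00842) with a mean normalized count of 8676 by the authors' deposited table. That change is smaller than the median of the table, so subtracting that median would put EPAS1 at −0.045, the only member whose direction turns. The table holds 4493 higher and 4234 lower genes and lacks those near 0, so its median is a small positive value that depends on the threshold. It does not estimate a shift common to all genes, and such a shift was not tested. The hydroxylase EGLN3, itself a HIF target that feeds back on the alpha subunits, was lower at −2.30 (SE 0.51, adjusted p 3.1e-06) by the authors' deposited table. Its mean normalized count there was only 47.8, and its SE was the highest of any member found. Group means can be implied from the mean normalized count and the fold change, if that is a plain ratio of means, which the sources used here do not state. Implied means were 16.2 with isoginkgetin and 79.4 with DMSO for EGLN3, and 9180 with isoginkgetin and 8172 with DMSO for EPAS1. Per kilobase of merged exon in GENCODE release 29 the mean normalized count of EPAS1 was 1188 and that of EGLN3 was 6.49, the lowest of the members found.

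All 3 listed transporters of glucose and lactate across the plasma membrane were lower, and both glucose transporters were lower than any other member with a mean normalized count of 1000 or more. SLC2A3, the high-affinity glucose transporter GLUT3, had a log2 fold change of −3.26 (SE 0.06) by the authors' deposited table, which is 9.58-fold lower (95% interval 8.83 to 10.4). Together with its mean normalized count of 7046, this implies group means of about 1331 with isoginkgetin and 12760 with DMSO. SLC2A1, the widely used transporter GLUT1, was lower by 4.11-fold (95% interval 3.88 to 4.36), with a log2 fold change of −2.04 (SE 0.04) by the authors' deposited table. The implied group means are 13558 with isoginkgetin and 55785 with DMSO. Both p-values are listed as 0. Among the 3645 genes with a mean normalized count of 1000 or more, SLC2A3 ranked 3 and SLC2A1 ranked 21 from the lowest. SLC16A3, the lactate exporter MCT4, stood at −1.01 (SE 0.06, adjusted p 1.5e-63) by the authors' deposited table, with implied means of 7121 for isoginkgetin and 14307 for DMSO.

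The transporters do not form 1 common change. SLC2A3 lay below SLC2A1 by −1.22 on the log2 scale (95% interval −1.36 to −1.07, taking the 2 estimates as independent). SLC2A3 shares 15.3% of its 50-base transcript windows with its near-copy SLC2A14 in GENCODE release 29, so some reads cannot be placed on one of them. SLC2A14 was also lower, at −3.42 (SE 0.22) by the authors' deposited table. SLC2A1 shares 1.64% of its windows with the antisense gene SLC2A1-AS1, which was at −2.09 (SE 0.48) by the authors' deposited table, and since the library kit keeps no strand reads there cannot be told apart. The lactate carrier SLC16A1, named after its value was seen, went against SLC16A3, at 0.40 (SE 0.06) by the authors' deposited table.

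**Figure D2:**
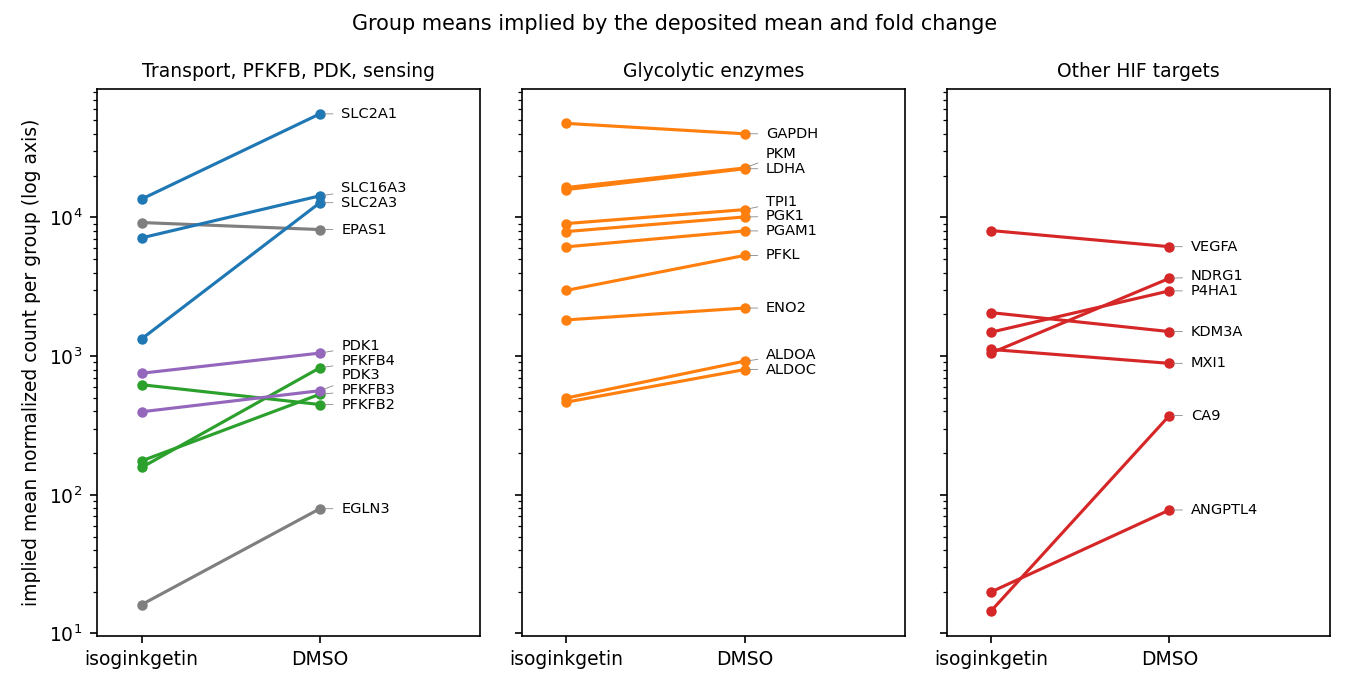
Mean normalized count per group on a log axis, isoginkgetin left and DMSO right, as implied by the deposited mean over the libraries and the deposited fold change; lines join the 2 values of a gene and are not libraries. SLC2A3 and CA9 have the steepest lines, while the lines of the glycolytic enzymes are shallow.

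The bifunctional PFKFB enzymes set the level of the sugar phosphate that switches phosphofructokinase on, and their genes split. PFKFB4, a strongly hypoxia-inducible isoform, was 5.23-fold lower (95% interval 4.17 to 6.55), which is −2.39 on the log2 scale (SE 0.17, adjusted p 2.43e-46) by the authors' deposited table. PFKFB3, the isoform that most favours making the activator, was 3.02-fold lower, at −1.60 (SE 0.18, adjusted p 9.35e-18) by the authors' deposited table. PFKFB2, the isoform known from heart, was higher at 0.47 (SE 0.15, adjusted p 0.00293) by the authors' deposited table. PFKFB2 was the highest of all members found. Implied means were 158 with isoginkgetin and 824 with DMSO for PFKFB4, 176 with isoginkgetin and 531 with DMSO for PFKFB3, and 622 with isoginkgetin and 447 with DMSO for PFKFB2. PFKFB4 lay below PFKFB2 by −2.86 (95% interval −3.30 to −2.42) and below PFKFB3 by −0.79 (95% interval −1.28 to −0.30), on the log2 scale and with the estimates taken as independent.

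Glycolytic enzymes themselves moved little but mostly in 1 direction. Of the 16 listed enzymes from hexokinase to lactate dehydrogenase, 9 were lower (56.25%), 1 was higher (6.25%) and 6 have no row in the table. Of all genes tested, 21.1% were lower and 22.4% higher, and these shares at the enzymes' levels are not known. Log2 fold changes of the 10 in the table ran from −0.88 to 0.25 with a median of −0.42, and 0 of them reached 2-fold. For the first steps after hexokinase, the authors' deposited table gives PFKL, the liver-type phosphofructokinase, at −0.84 (SE 0.07, adjusted p 3.64e-30). Its implied means were 2978 with isoginkgetin and 5317 with DMSO. Aldolase, which splits the sugar into triose phosphates, had both listed genes lower, ALDOA at −0.88 (SE 0.14) and ALDOC at −0.78 (SE 0.14) by the authors' deposited table. The 2 aldolase genes differed by −0.10 (95% interval −0.49 to 0.29 on the log2 scale), less than their combined error. Implied means were 499 with isoginkgetin and 920 with DMSO for ALDOA, and 466 with isoginkgetin and 799 with DMSO for ALDOC. Of the 50-base windows of ALDOA, which had a mean normalized count of 709 by the authors' deposited table, 48.1% occur in transcripts of other genes in GENCODE release 29, 37.0% in AC093512.2 alone. How the authors' counting treated such reads is not given in the sources used here.

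After aldolase the path changed less, and all genes found there but GAPDH were lower. TPI1, which interconverts the triose phosphates, was at −0.33 (SE 0.05) by the authors' deposited table, or 79.4% of the DMSO level. PGK1, the first enzyme of the path to make ATP, stood at −0.35 (SE 0.06) and PGAM1, a mutase, at −0.38 (SE 0.05) by the authors' deposited table. ENO2, the neuronal enolase, was the least changed of the lower members at −0.28 (SE 0.08, adjusted p 0.00119) by the authors' deposited table. PKM, a pyruvate kinase gene, was at −0.47 (SE 0.05) and LDHA, which reduces pyruvate to lactate, at −0.50 (SE 0.05) by the authors' deposited table. LDHA thus had implied means of 15864 with isoginkgetin and 22429 with DMSO, and PKM of 16426 with isoginkgetin and 22707 with DMSO. The same step gives 7906 with isoginkgetin and 10075 with DMSO for PGK1, and 6135 with isoginkgetin and 7990 with DMSO for PGAM1. Adjusted p-values were 7.12e-21 for PKM, 5.57e-26 for LDHA, 2.18e-11 for PGAM1, 7.54e-08 for PGK1 and 7.29e-09 for TPI1 by the authors' deposited table. All 5 changes passed the threshold at well under 2-fold.

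GAPDH, the dehydrogenase between aldolase and PGK1 and a common reference gene, was higher at 0.25 (SE 0.04, adjusted p 1.17e-08) by the authors' deposited table. Its implied means were 47607 with isoginkgetin and 40065 with DMSO. Subtracting the table's median of 0.21 would leave GAPDH at 0.04, though that median depends on the threshold. Per kilobase of merged exon (GENCODE release 29), GAPDH had the highest mean normalized count of the members found, 14705, followed by SLC2A1 at 7339 and TPI1 at 3779. Processed pseudogenes and overlapping genes share 17.7% of the 50-base windows of GAPDH, 30.7% of those of PGAM1 and 12.6% of those of TPI1, so these 3 values are less certain than their SE. Of the 27 members found, 19 share under 5% of their windows with any other gene.

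The pyruvate dehydrogenase kinases, which keep pyruvate from entering the mitochondrial cycle, were both lower and by like amounts. PDK1 was at −0.48 (SE 0.13, adjusted p 0.000336) and PDK3 at −0.50 (SE 0.17, adjusted p 0.00416) by the authors' deposited table. The difference, PDK3 minus PDK1, was −0.02 on the log2 scale, with a 95% interval of −0.43 to 0.39. Implied means were 752 with isoginkgetin and 1051 with DMSO for PDK1, and 397 with isoginkgetin and 563 with DMSO for PDK3.

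**Figure D3:**
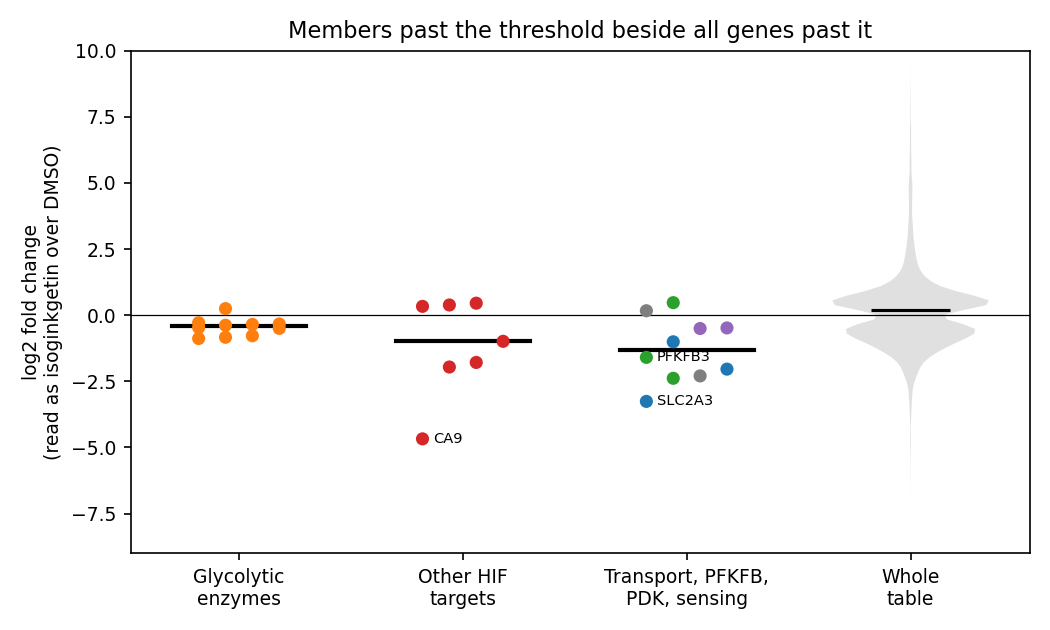
Log2 fold changes of members in the authors' deposited table, one point a gene and bars at the medians, beside the distribution of all 8727 genes of the table. Glycolytic enzymes lie within −0.88 to 0.25, and other HIF targets spread from −4.68 to 0.45. The gap of the wide shape around 0 comes from the threshold, since genes near 0 have no row.

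Among genes with a row, HIF targets outside glycolysis had more widely spread values than the enzymes. Of 12 listed, 4 were lower (33.3%), 3 were higher (25%) and 5 have no row, beside 21.1% lower and 22.4% higher of all genes tested. Shares this near the background are no result about the group. Log2 fold changes of the other HIF targets had an SD across genes of 1.86, beside 0.33 for the enzymes. Both SDs cover only genes past the threshold, and at low counts only larger changes pass. In the whole table the median absolute change was 1.66 under a mean normalized count of 100 and 0.49 at 1000 or more. CA9 and ANGPTL4 had mean normalized counts of 194 and 48.8, and whether level adds to the spread was not tested. The medians were −0.99 for the other HIF targets and −0.42 for the enzymes. That order of medians is fragile. The middle one of the 7 values is P4HA1 at −0.99, and the next above it is MXI1 at 0.33. Leaving out ANGPTL4, CA9 or NDRG1 would each turn the order. With genes under a mean normalized count of 100 left out, which removes ANGPTL4, the median of the other HIF targets was −0.33, against −0.42 for the enzymes. At 2-fold or more 3 of the 12 were lower, ANGPTL4 among them, and 0 of the 16 enzymes, beside 7.43% of all genes tested. Counts this small are no result about either group. The genes are not replicates and no test of the difference between the groups was made.

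CA9, a membrane carbonic anhydrase that handles acid outside the cell and is a standard hypoxia marker, was the lowest member. Its log2 fold change was −4.68 (SE 0.36, adjusted p 6.81e-38) at a mean normalized count of 194 by the authors' deposited table, rank 20 from the lowest of the whole table. That is 25.6-fold lower (95% interval 15.7 to 41.7), with implied means of 14.6 for isoginkgetin and 373 for DMSO. CA9 shares 30.3% of its 50-base windows with ARHGEF39, a gene at the same locus, so reads there cannot be placed on one gene without strand. ARHGEF39 was lower too, at −2.21 (SE 0.19) by the authors' deposited table.

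NDRG1, a stress-induced cytoplasmic protein long used as a hypoxia marker, was 3.45-fold lower (95% interval 3.10 to 3.85). Its log2 fold change of −1.79 (SE 0.08, adjusted p 1.9e-108) by the authors' deposited table implies means of 1054 with isoginkgetin and 3637 with DMSO. None of its 50-base windows occurs in another gene. P4HA1, a collagen prolyl hydroxylase, was at −0.99 (SE 0.08, adjusted p 2.17e-34) by the authors' deposited table, with implied means of 1488 for isoginkgetin and 2953 for DMSO. ANGPTL4, a secreted inhibitor of lipoprotein lipase, was at −1.96 (SE 0.50, adjusted p 3.64e-05) by the authors' deposited table. Its mean normalized count of 48.8 gives it a 95% interval from 1.96-fold to 7.73-fold lower.

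Against these, 3 well-known HIF targets were higher by modest amounts. VEGFA, the growth factor of blood vessels, was at 0.39 (SE 0.05, adjusted p 3.98e-12) by the authors' deposited table, with implied means of 8035 for isoginkgetin and 6151 for DMSO. KDM3A, a histone demethylase, stood at 0.45 (SE 0.08, adjusted p 1.64e-07) by the authors' deposited table, with implied means of 2057 for isoginkgetin and 1502 for DMSO. MXI1, which pairs with MAX and opposes MYC, was at 0.33 (SE 0.11, adjusted p 0.00449) by the authors' deposited table. All 3 kept a positive value after centring on the median of the table, which does not measure a shift common to all genes. CA9 and KDM3A lie near opposite ends of the members, and both promoters shown above carry the core close to the start. From the other listed start of KDM3A the same match lies at bases 116 to 112. A match is found in 43.2% of all promoters, and whether it bears on direction was not tested.

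**Figure D4:**
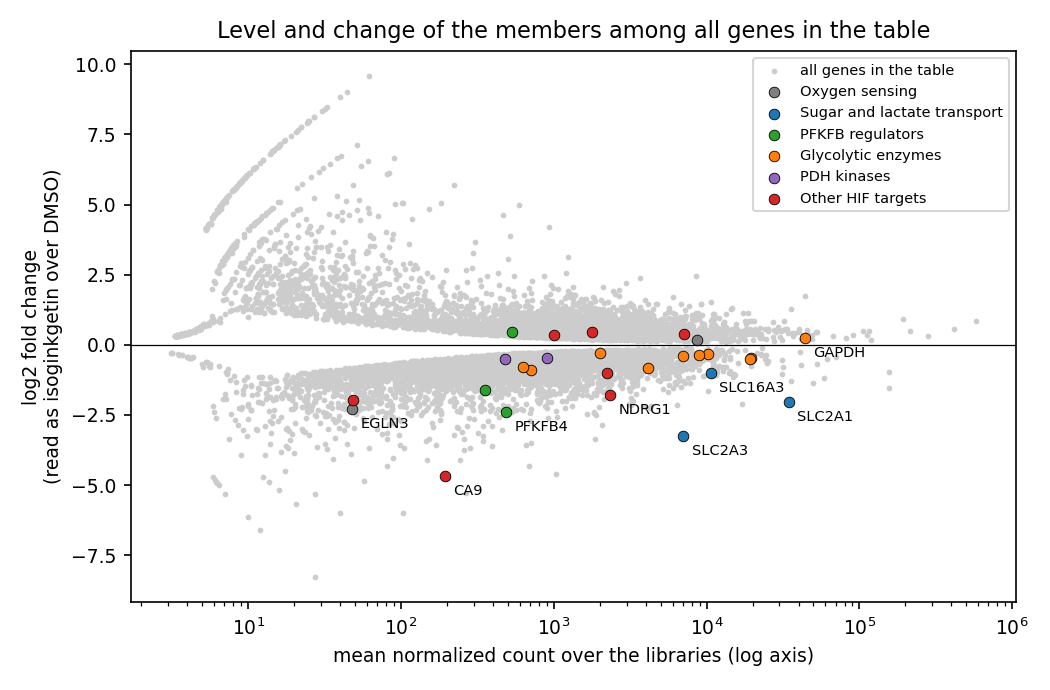
Mean normalized count over the libraries (log axis) against log2 fold change for all 8727 genes of the authors' deposited table in grey and the 27 members in colour by role. SLC2A3 and SLC2A1 lie at the lower edge of the genes at their level, while GAPDH lies just above 0.

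Genes around these members were counted from 7 further lists with 136 genes in all, of which 42 were higher and 47 lower (30.9% and 34.6%, beside 22.4% and 21.1% of all genes tested). Among 41 further HIF targets, 22 were lower and 9 higher, with a median log2 fold change of −0.66 over the 31 in the table. EDN1, the precursor of the vessel-constricting peptide endothelin, was at −4.11 (SE 0.28), PPFIA4, a liprin scaffold protein, at −3.18 (SE 0.48) and MIR210HG, the host transcript of the hypoxia microRNA, at −2.96 (SE 0.57) by the authors' deposited table. Those 22 are 53.7% of the list, beside 21.1% of all genes tested and 52.5% of the 40 members. The list was chosen with earlier results of these data known, so the likeness to the members is no independent result. It also holds TF, 1 of the liver markers counted above. Among 15 components of the HIF pathway itself, 6 were higher (40%, beside 22.4% of all genes tested) and 1 was lower. After centring on the median of the table these counts were 5 and 2, since CREBBP, a HIF coactivator at 0.19 (SE 0.07) by the authors' deposited table, turned to −0.02. VHL, the substrate receptor that marks HIF alpha subunits for removal, stood at 0.83 (SE 0.07) and EGLN2, a sister of EGLN3, at 0.83 (SE 0.27) by the authors' deposited table. HIF1AN, the asparagine hydroxylase that blocks HIF activity, was lower at −0.73 (SE 0.07) by the authors' deposited table.

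Other isoforms and entry enzymes of glycolysis had 5 higher and 5 lower of 20, or 25% each way, close to the 22.4% and 21.1% of all genes tested. HK3, a hexokinase of blood cells, was listed at 8.84 with an SE of 2.76 and a mean normalized count of 40.2 by the authors' deposited table. At such a level and error the size of its change is poorly determined, and the same holds for SLC2A2 and G6PC1. SLC2A2, the liver glucose transporter GLUT2, was at −3.67 (SE 1.01) at a mean normalized count of 18.3, and TIGAR, a phosphatase that opposes PFKFB action and is listed as C12orf5, at 1.89 (SE 0.25) by the authors' deposited table. Gluconeogenesis genes, the reverse path of the liver, were lower in 5 of 9 cases (55.6%) and higher in 0, beside 21.1% and 22.4% of all genes tested. G6PC1, listed as G6PC, which releases free glucose, had the lowest log2 fold change of any gene, −8.29 (SE 2.78), by the authors' deposited table. Its partner SLC37A4, the glucose phosphate carrier of the endoplasmic reticulum, was at −1.70 (SE 0.12), and PC, pyruvate carboxylase, at −0.94 (SE 0.10) by the authors' deposited table. Among 12 glycogen genes 6 were lower (50%) and 2 higher (16.7%), beside the same background. The liver phosphorylase PYGL was at −1.03 (SE 0.10) and the phosphorylase kinase subunit PHKA2 at −0.65 (SE 0.09) by the authors' deposited table.

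Pyruvate dehydrogenase and citric acid cycle genes had 13 of 27 higher (48.1%) and 6 lower (22.2%), beside a background of 22.4% and 21.1% of all genes tested. After centring on the median of the table the list's counts were 12 and 7. IDH3G, a subunit of the NAD-dependent isocitrate dehydrogenase, was at 0.93 (SE 0.12), and PDP2, the phosphatase that reverses the PDK mark, at 0.75 (SE 0.14) by the authors' deposited table. IDH2, the NADP-dependent enzyme of mitochondria, was lower at −0.72 (SE 0.08) by the authors' deposited table. The median of this list was 0.26, close to the 0.21 of the whole table. Among 12 partners of MXI1 in the MYC and glucose-sensing networks, 7 were higher (58.3%) and 2 lower (16.7%), beside the same background. MXD1, a relative of MXI1, stood at 1.999 (SE 0.11) and MAX, the shared partner, at 1.19 (SE 0.10), whereas MLXIPL, the glucose-responsive factor ChREBP of liver, was at −2.18 (SE 0.07) by the authors' deposited table. MLXIPL is a transcription factor that raises liver pyruvate kinase and fat synthesis genes when glucose is plentiful.

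**Figure D5:**
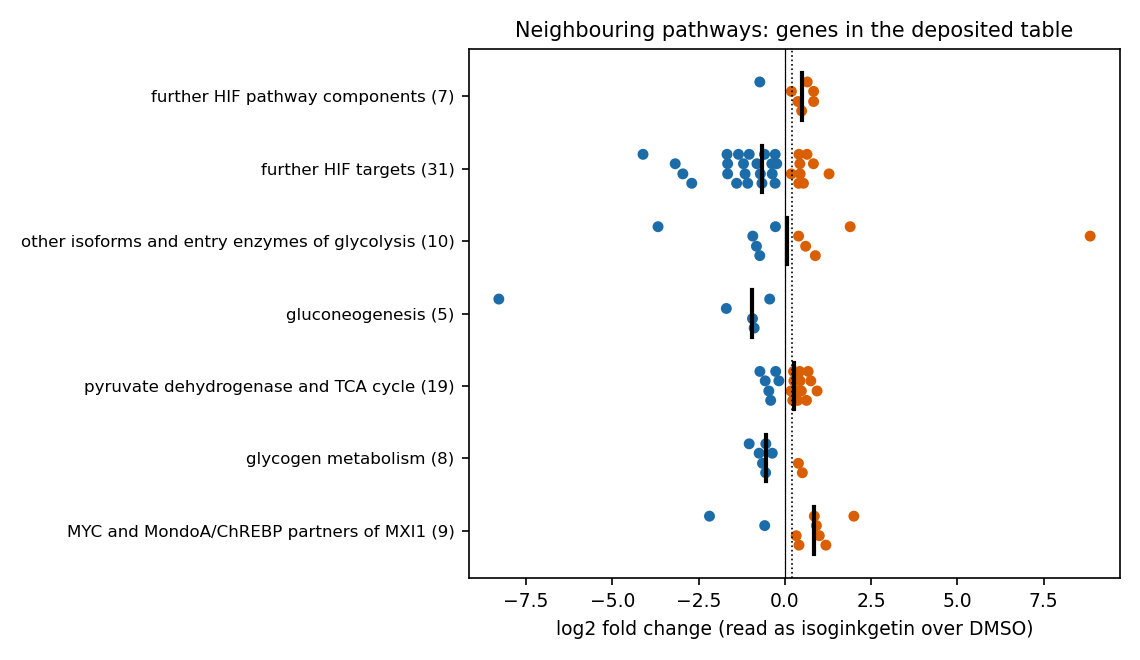
Log2 fold changes in the authors' deposited table for the 7 neighbouring lists, one point a gene, blue for lower and orange for higher, with a bar at each list's median and the number in the table in brackets. The dotted line is the median of the whole table. Further HIF targets and gluconeogenesis lie mostly left of 0, and the citric acid cycle list straddles it.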

How the data were processed

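Polyadenylated RNA from HepG2 cells was sequenced in 2 libraries with isoginkgetin and 2 with DMSO. Sample titles give the groups, and the design text the dose and time. Alignment and counting tools were STAR 2.7.0 and featureCounts, per the submitters' processing notes, which list hg19 as well as mm10 without saying for what. Per the labels' protocols the kit was non-directional. The annotation, and how shared reads were treated, is not given in the sources used here. Depth per library is unknown.

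The authors deposited 1 table of their own comparison. Its mean normalized count is a signal averaged over libraries by the authors, its log2 fold change and SE were deposited on the log2 scale, and its p-value and adjusted p-value were deposited per gene. Per the file headers these are the columns of a differential expression table, and adjusted p-values stay under 0.05. The authors' model is not stated. The planned count model could not be run without values per library.

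The number of genes tested was recovered as the median of adjusted p times rank over p, a step checked on simulated data. Group means were implied from the mean and fold change with 2 libraries a group, and 95% intervals are 1.96 SE. At mean normalized counts of 1000 or more the median SE was 0.0804, and under 100 it was 0.718. The ratio of fold change over SE to the normal deviate of the p-value had a median of 0.757 under 100 and 0.990 at 1000 or more, and whether fold changes were shrunken is not stated. Members were matched by symbol alone, and neighbouring lists also by RefSeq synonyms belonging to 1 gene (5 matched so). Shared sequence was counted in 50-base windows of GENCODE release 29 transcripts on both strands. All members found are named, and of each neighbouring list the 3 with the largest absolute change, except 1 gene that is not reported here. Members and lists were chosen with earlier results of these data known. Python 3.11.15, pandas 2.3.3 and scipy 1.17.1 were used.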

Additional observations from a re-analysis of the deposited data

How the results depend on the processing

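Without values per library, leaving out a replicate, another normalization and another tool were not run. No paired analysis was possible because the deposited columns carry no replicate. With an adjusted p under 0.001, and with Bonferroni over all genes tested, 3 members stayed higher in place of 6. Bonferroni left 27 higher and 30 lower genes in the neighbouring lists, in place of 42 and 47. At 1.5-fold or more, 0 members were higher and 13 lower with a median of −1.79, 0 enzymes were higher and 3 lower, 0 other HIF targets were higher, and 19 neighbouring genes were higher and 31 lower. At 2-fold or more, 0 members were higher and 9 lower with a median of −2.04, 0 enzymes were higher or lower, leaving no median, 0 other HIF targets were higher, and 5 neighbouring genes were higher and 18 lower. These falls follow from fewer genes passing. Centring on the median of the table turned EPAS1 to −0.045 and no other member. Since that median depends on the threshold, this setting does not test the normalization. A mean normalized count of at least 100 removed EGLN3 and ANGPTL4 and put the median of the other HIF targets at −0.33 in place of −0.99, above the enzymes' −0.42. Depth is unknown, and genes that missed the threshold have no row, which limits every count given.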

Other observations

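The wider family of facilitative sugar transporters, taken by symbol after the values of SLC2A1 and SLC2A3 were seen, has 11 SLC2A genes in the table, of which 9 were lower and 2 higher, with a median log2 fold change of −1.40. Family members without a row were not counted, so no share can be set beside that of all genes, and the 9 include SLC2A1 and SLC2A3 themselves and SLC2A14, which shares sequence with SLC2A3. SLC2A10, found in the endoplasmic reticulum and Golgi, was at −1.77 (SE 0.17) by the authors' deposited table. SLC2A4, the insulin-responsive transporter of muscle and fat, stood at −1.40 (SE 0.22) and SLC2A6, a transporter of lysosomal membranes, at −1.19 (SE 0.19) by the authors' deposited table. SLC2A9, which carries urate, was at −0.65 (SE 0.13) and SLC2A11 at −0.57 (SE 0.20) by the authors' deposited table. The 2 higher ones were SLC2A8, an intracellular transporter, at 0.34 (SE 0.08) and the fructose carrier SLC2A5 at 2.63 (SE 1.46) by the authors' deposited table. SLC2A5 had a mean normalized count of 10.2 there, so its value is poorly determined.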
